A study of Tetradesmus deserticola with 10 samples.

Results

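The change that drying cells of a desert green alga had accumulated by the late stage of desiccation, before they were fully dry, is described here by transcript abundance. The members are 4 of the 10 libraries of the series: 2 labelled as the late stage (Late), set against 2 labelled Hydrated, with every one of the 20783 assembled genes considered. All came from cultures of Tetradesmus deserticola strain Sni-2, which the submitters call Acutodesmus deserticola, grown for 6 weeks in 150 mL of BBM+WH medium. Drops of 40 µL were placed on round cover glasses. Hydrated drops were taken at once, and Late drops 7.5 h into drying, when the drop had lost 60% of its volume. An intermediate stage (Early), taken at 2.5 h and a volume loss of 25%, is used below to divide the interval. The series also holds a Dry stage, collected later than Late and with extra time in a drying chamber. A Rehydrated stage was collected after rehydration. Dry and Rehydrated enter the fit and are shown for single genes. The labels name no genetic change and no added agent. No drops kept wet for 7.5 h were analysed here, so drying cannot be told apart from elapsed time on the glass.

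Green algae of desert crusts can lose nearly all free water and resume metabolism when wetted again. While a drop dries, cells lose turgor and solutes become concentrated, and the messenger RNA pool can be altered by new transcription, by decay, and by protection of existing messages. In any transcriptome a small number of messages takes a large part of the reads and most others are present at few copies, so a change in the pool can look different among abundant and rare messages. Sequencing measures shares of a pool, not copies per cell: less RNA per cell and fewer cells of a kind cannot be told apart in these bulk libraries.

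The Hydrated libraries held 1917825 and 1398635 counts and the Late libraries 1162221 and 1880952. Nothing in the labels ties the 2 libraries of a stage to separate cultures, so p-values measure only how these libraries vary, which may be technical. The files pair no assembly identifier with a gene name or function, so genes are given by abundance and, in 4 cases, by identifier. Marker genes of the alga or of other organisms in the culture could not be checked for the same reason.

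Each gene was placed in an abundance class by the mean of its deposited, length-corrected expression signal over the 4 libraries. The low class (signal under 10) held 15199 genes, the medium class (10 to 100) 4923, the high class (100 to 1000) 528 and the very high class (1000 or more) 133. Enough counts for a test were present for 9856 genes, which are all 133 of the very high class, 527 of the high class, 4497 of the medium class and 4699 of the low class. The other 69.1% of the low class was not tested. A gene could pass this filter through counts in Hydrated or Late alone, or in another stage, so a tested gene of the low class may have few counts here. The median tested gene had a mean of 9.5 counts per library in the low class, 36.5 in the medium, 372 in the high and 2273 in the very high class. Assembled length differed as well, with a median of 0.651 in the very high class and 1.10 in the low class relative to the median tested gene.

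By the late stage the most abundant transcripts took a larger part of the pool. The 133 very high genes held 48.8% and 50.8% of the counts in the Hydrated libraries and 62.0% and 69.1% in the Late libraries. Both Late libraries lay above both Hydrated libraries, a difference of 15.8 percentage points between stage means of 49.8% ± 1.44 (SD, n = 2) and 65.6% ± 5.01. The other classes held smaller shares in Late. Medium genes went from 20.3% and 20.1% to 14.6% and 10.5%, and low genes from 5.97% and 7.45% to 3.87% and 2.74%. The high class held 25.0% and 21.7% in Hydrated and 19.5% and 17.6% in Late. In each of those 3 classes both Late libraries lay below both Hydrated libraries. The 95% Wilson interval of any of these shares reached at most 0.114 percentage points to either side, for counting error only. With 2 libraries on each side the smallest p of a two-sided exact permutation test is 0.333, so the shares were not tested. Without Hydrated replicate 1 the change of the high class was -3.09 percentage points, against -4.73 with all 4 libraries.

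**Figure D1:**
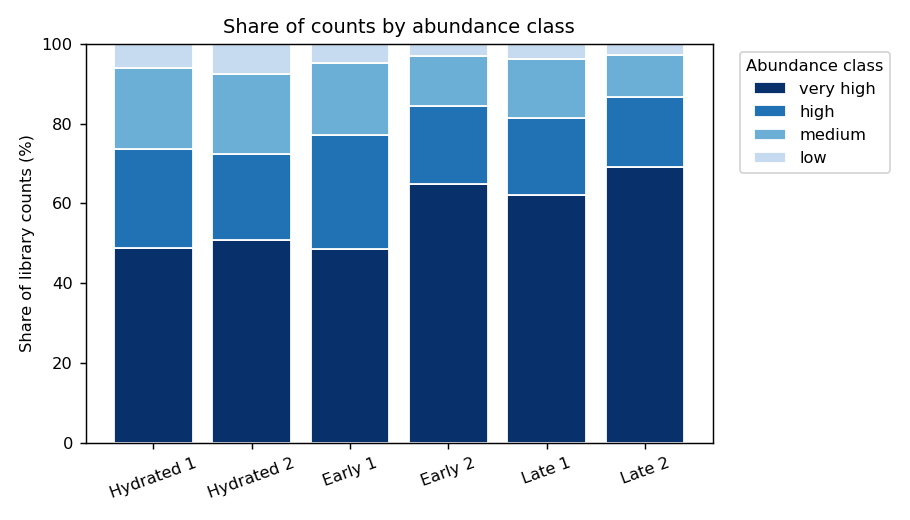
Share of all counts (%, vertical axis) held by each abundance class in the 2 Hydrated, 2 Early and 2 Late libraries; each bar is 1 library and adds up to the whole library. The very high class, at the bottom, takes 48.8% and 50.8% in Hydrated and 62.0% and 69.1% in Late, and the 2 Early libraries differ from each other.

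A large part of this difference lay in very few genes. The 10 genes with the highest mean signal held 19.6% and 21.1% of the counts in Hydrated and 26.5% and 33.5% in Late. The other 123 very high genes held 29.1% and 29.7% in Hydrated and 35.5% and 35.6% in Late, so their share was nearly equal in the 2 Late libraries while that of the 10 leading genes was not. The most abundant gene alone took 4.90% and 6.19% in Hydrated and 7.73% and 11.9% in Late. With that gene left out of the totals, an alternative chosen after the data were seen, the very high class held 46.8% ± 1.01 of the counts in Hydrated and 61.9% ± 4.29 in Late.

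Per gene, the shift grew with abundance. Counts were scaled with TMM factors, which set libraries level on the bulk of genes and not on total reads, and fold changes came from edgeR's quasi-likelihood fit over the 10 libraries of the series. On the log2 scale the median fold change of Late vs Hydrated was -0.32 in the low class, 0.040 in the medium, 0.48 in the high and 1.05 in the very high class, against -0.080 over all 9856 tested genes. When libraries were scaled by their totals the median over all genes was -0.83, and the class medians were -1.07, -0.70, -0.28 and 0.28, so the high and medium classes changed sign. The TMM factors behind this gap were 1.48 and 1.58 in Hydrated and 1.09 and 0.759 in Late. Class medians are therefore given relative to the median of all tested genes: -0.24, 0.12, 0.56 and 1.13 from the low to the very high class under TMM, and -0.24, 0.13, 0.55 and 1.10 with library totals. The order of the classes was the same under both. Since Late and Hydrated signal also set the classes, they were cut again on the 6 libraries of the other stages, which gave -0.23, 0.15, 0.52 and 1.13. Those libraries include Early and Dry from the same drying course, so these classes are not independent of drying either. Without Hydrated replicate 2 the medium value of the main classes was 0.072. In finer steps, chosen after the data were seen, the relative median was -1.18 for the 816 genes with signals under 2, whose median gene had a mean of 3.25 counts. It was -0.32 for signals of 2 to 5, 0.0038 for the 2326 genes with signals of 5 to 10, 0.083 for 10 to 20, 0.23 for 50 to 100, 0.57 for 200 to 500 and 1.11 for 1000 to 2000. Beyond that it stayed level, at 1.11 for 2000 to 5000 and 1.19 over the 19 genes above 5000. At the lowest signals a gene could pass the filter through its Hydrated libraries alone, and 3 counts stood for a higher CPM in Late. A fall at those signals cannot be told apart from these limits.

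In each library the class medians could be read separately, relative to the Hydrated mean and to all tested genes of that library. For the very high class the 2 Hydrated libraries stood at 0.025 and -0.025 on the log2 scale, Late replicate 1 at 0.89 and Late replicate 2 at 1.35. High genes stood at 0.092 and -0.092 in Hydrated and at 0.46 and 0.61 in Late. Low genes stood at -0.054 and 0.054 in Hydrated and at -0.20 and -0.17 in Late. The medium class moved least, to 0.13 and 0.10. The 2 Hydrated values of a class mirror each other because their own mean is the reference. In all 4 classes the Late libraries did not overlap the Hydrated libraries. Late replicate 2 was further out than replicate 1 in the very high and high classes, and less far out in the low and medium classes.

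**Figure D2:**
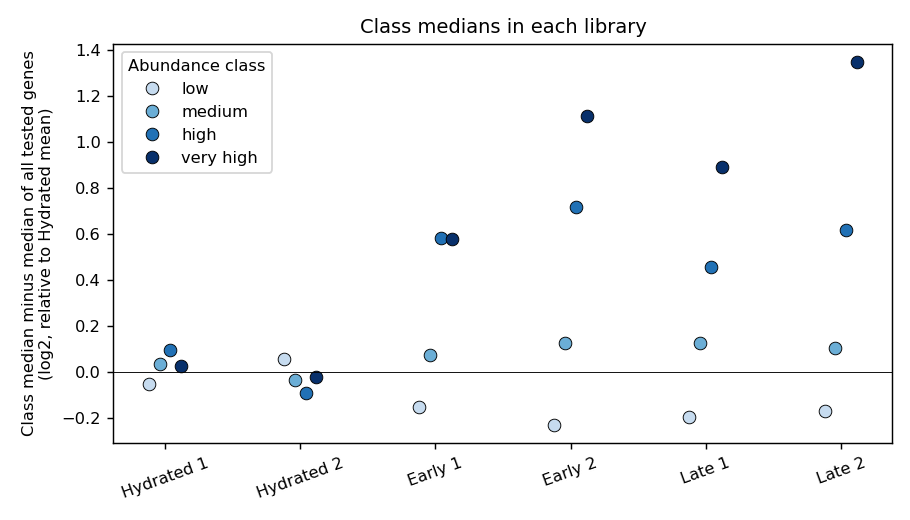
Median log2 level of each abundance class minus that of all tested genes, relative to the mean of the Hydrated libraries (vertical axis), in each of 6 libraries; each point is 1 class in 1 library. The very high class stands at 0.025 and -0.025 in Hydrated and at 0.89 and 1.35 in Late, while the low class lies below 0 in Early and Late.

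Very abundant genes had similar fold changes. Between the 10 and 90 percentile of the very high class the log2 fold change ran from 0.64 to 1.39, a width of 0.75. That width was 2.69 in the high class, 2.57 in the medium and 3.14 in the low class, whose genes had the fewest counts. Of the 133 very high genes, 129 had a positive log2 fold change under TMM and 112 with library totals; 130 and 129 of them lay above the median of all tested genes. The lowest value in the class was -0.49. The set of most abundant genes changed little: of the 100 genes with the highest signal in a library, a Late and a Hydrated library shared between 82 and 91, and the 2 libraries of a stage shared 87 in both stages. Among the top 1000 the Late and Hydrated libraries shared 700 to 734, fewer than the 876 shared by the Hydrated libraries and the 842 shared by the Late libraries.

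**Figure D3:**
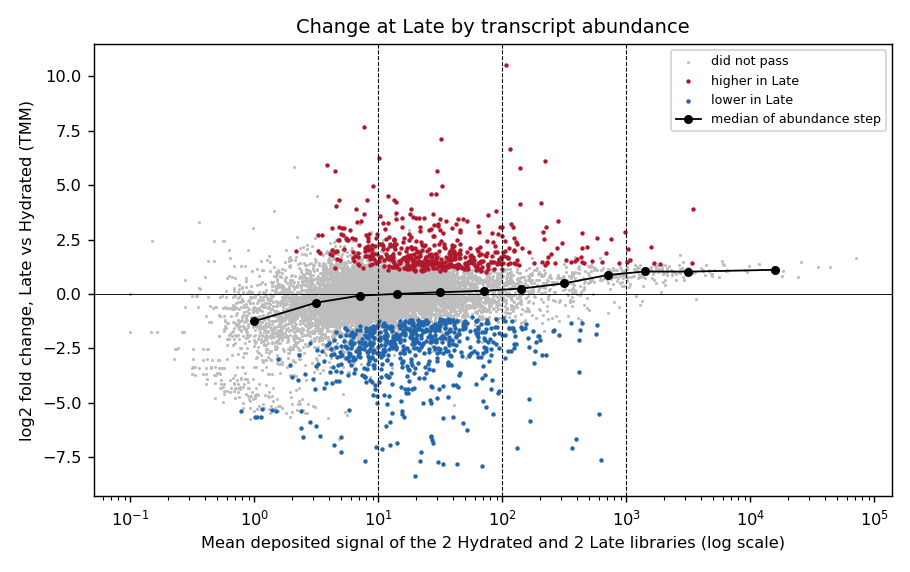
Log2 fold change of Late vs Hydrated under TMM (vertical axis) against the mean deposited signal of the 4 libraries (horizontal log axis) for 9856 tested genes; dashed lines mark the class limits of 10, 100 and 1000, and joined points are medians of abundance steps. Genes that passed the test are coloured, and the step medians rise to about 1 in the very high class, where no coloured gene lies below 0.

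Single genes were tested in the same fit, with Benjamini-Hochberg adjustment over all 9856 genes. At an adjusted p of 0.05, 491 genes were higher in Late (4.98%) and 627 lower (6.36%), together 11.3% of those tested. With library totals the split was 117 higher and 1347 lower genes, and calls shared by 4 scalings (TMM, RLE, upper quartile and library totals) were 117 higher (1.19%) and 594 lower (6.03%). The libraries of the stages did not overlap in 488 of the higher and 625 of the lower genes. These genes were called on the same libraries, so their separation is a description and adds no support to the calls. Over all tested genes, 26.2% lay entirely higher in Late and 31.4% entirely lower. Fewer genes were called whichever library was left out. Such a fit leaves a stage with 1 library, which is assumed to vary as the other stages do. Leaving out Hydrated replicate 1 gave 197 higher and 380 lower genes, and Hydrated replicate 2 gave 218 and 383. Leaving out Late replicate 1 gave 263 and 328, and Late replicate 2 gave 250 and 296.

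Calls were unevenly spread over the classes. In the low class 81 genes rose and 172 fell, 5.38% of those tested and below the 11.3% over all genes. The medium class had 340 higher and 407 lower genes, or 16.6%, and supplied 69.2% of all higher and 64.9% of all lower genes. The largest called share was in the high class, with 62 higher and 48 lower genes, 20.9% of 527. This rank depended on the model. In DESeq2 the very high class had the largest share, with 41 higher and 0 lower of 133 genes. The high class had 87 and 47 of 527 there. In the very high class 8 genes rose and none fell, 6.02% of 133. By the fitted value under TMM, however, 83 of the 133 had at least doubled, against 1247 of all 9856 tested genes. With library totals there were 10 higher and 453 lower genes in the low class, 75 and 798 in the medium, 30 and 94 in the high, and 2 and 2 in the very high class. Whichever of the 4 libraries was left out, the higher genes numbered 21 to 30, 142 to 186, 31 to 47 and 3 to 7 from the low to the very high class, and the lower genes 60 to 93, 212 to 268, 24 to 43 and 0.

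How many very abundant genes passed depended on the model. A median adjusted p of 0.153 over its 133 genes came with a median standard error of 0.46 on the log2 scale. DESeq2 called 41 of them higher, as did edgeR fitted to the 4 Hydrated and Late libraries alone, while limma on the log2 signal with 0.1 added called 1. In 115 of the 133 (86.5%) the TMM-scaled level was higher in both Late libraries than in both Hydrated libraries, against 26.2% of all tested genes. In 61 the plain share of counts was higher in both Late libraries, and the matching figure over all tested genes was not computed. No very high gene was called lower by edgeR under TMM or by DESeq2, and 2 were with library totals. In edgeR under TMM 82 of the 133 had an unadjusted p under 0.05, against 2557 of all 9856 tested genes. The 125 genes not called held 48.3% and 50.3% of the counts in Hydrated and 61.0% and 68.1% in Late, so nearly all of the gain of the very high class sat in genes that did not pass the test singly.

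**Figure D4:**
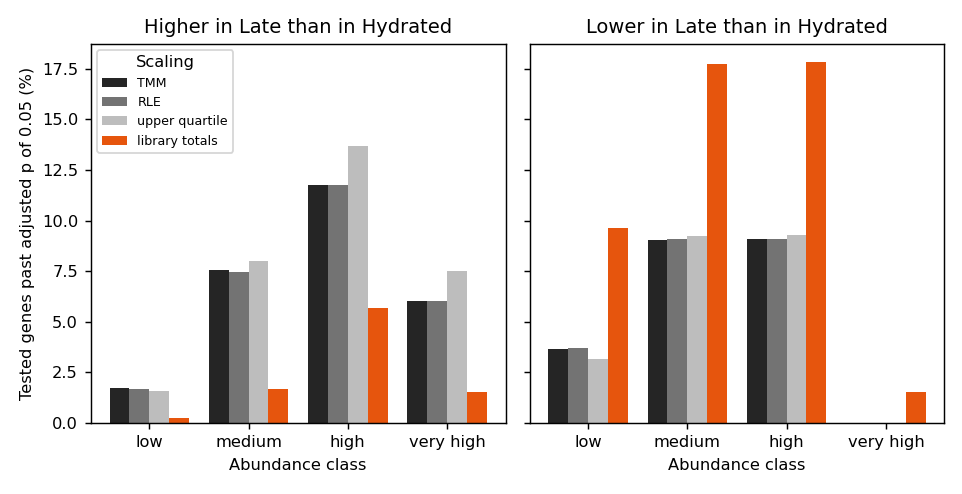
Percentage of the tested genes of each abundance class that were higher (left) or lower (right) in Late than in Hydrated at an adjusted p of 0.05, under 4 scalings (bar colours). Under TMM the higher genes reach 11.8% in the high class and the lower genes 9.11%, and with library totals the lower bars grow in all classes while the higher bars shrink.

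Sizes of change also differed between classes. Every called gene differed at least 2-fold. The median log2 fold change of the called genes was 2.08 for higher and -2.71 for lower genes of the low class, 1.67 and -2.14 in the medium class, and 1.92 and -1.94 in the high class. The 8 higher genes of the very high class had a median of 1.51. Falls of at least 8-fold were fitted for 66 of 172 lower genes in the low class, 102 of 407 in the medium class and 9 of 48 in the high class. Rises of that size were fitted for 15 of 81, 39 of 340, 10 of 62 and 1 of 8 genes from the low to the very high class. The smallest called rise was 1.19 on the log2 scale in the low class and 1.02 in the medium class, and low genes had a median standard error of 0.71 against 0.43 in the medium class.

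Called genes were a small part of the pool. The 491 higher genes held 2.56% and 2.60% of the counts in Hydrated and 6.65% and 5.0% in Late. The 627 lower genes held 7.56% and 7.46% in Hydrated and 1.23% and 0.786% in Late. These genes were chosen by this difference, so the shares are a description. The 8738 genes that did not pass the test held 88.0% and 87.2% in Hydrated and 91.0% and 93.3% in Late.

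Loss was more frequent than gain at the limit of detection. In 29 genes, 13 of the low and 16 of the medium class, both Late libraries had 0 counts while each Hydrated library had at least 10; 24 of them passed the test, 2 did not and 3 were not tested. The largest of these, a medium gene with 95 and 47 counts in Hydrated, was at least 12.8-fold lower in Late, with 3 counts per library as the limit that a count of 0 allows. The reverse pattern was found for 1 medium gene, with 0 counts in both Hydrated libraries and 10 and 22 in Late, at least 9.89-fold higher (edgeR adjusted p = 5.7e-05). No gene of the high or very high class was lost or gained in this sense. The libraries were not equally deep: 3 counts corresponded to 1.07 and 1.4 CPM in the Hydrated libraries and 2.40 and 2.12 in the Late libraries, so a gained gene needed a higher level than a lost one.

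Genes shown singly had to meet these conditions: a call under all 4 scalings, at least a 2-fold difference with a mean of 50 counts, and no overlap between the stages. Of the tested genes 63 higher and 281 lower ones met them, with 2 higher and no lower genes in the very high class and 28 higher and 47 lower genes in the high class. Library totals alone called 117 higher and 1347 lower genes, against 491 and 627 under TMM, so requiring that call favours falls. The 2 with the highest signal in each direction are given in full.

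TRINITY_DN177025_c2_g1, a very high gene of unknown identity ranked 34 of all genes by signal, had 290 and 163 CPM in the Hydrated libraries and 2227 and 4520 in the Late libraries. Both Late libraries stood far above both Hydrated libraries. The log2 fold change was 3.90 (SE 0.57, edgeR adjusted p = 7.94e-05), 3.09 with library totals and 3.30 without Late replicate 2. It had 1092 and 2278 CPM in Early, already above Hydrated (adjusted p = 0.00351), while Late vs Early gave an adjusted p of 0.508. In Dry it stood at 673 and 1030 CPM and in Rehydrated at 90.7 and 211, so it was highest in Late on average.

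TRINITY_DN179436_c1_g1, ranked 92, had 334 and 251 CPM in Hydrated and 1044 and 1563 in Late, again without overlap. The log2 fold change was 2.15 (SE 0.48, edgeR adjusted p = 0.00392), and 1.38 with library totals. In Early it was at 962 and 2097 CPM, where Late vs Early gave an adjusted p of 0.926, and in Dry at 372 and 395. Its call was lost without Hydrated replicate 2 (log2 fold change 1.96, adjusted p = 0.0756), without Late replicate 2 (1.83, adjusted p = 0.0521) and with limma on the signal plus 0.1 (adjusted p = 0.0762).

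TRINITY_DN186231_c1_g2 was among the abundant genes of hydrated cells and nearly gone in Late. It had 6204 and 6034 counts, or 2222 and 2810 CPM, in the Hydrated libraries and 14 and 20 counts, or 11.2 and 14.1 CPM, in the Late libraries. Early libraries lay between, at 137 and 89.1 CPM, and were higher than Late (edgeR adjusted p = 0.00145). The log2 fold change of Late vs Hydrated was -7.62 (SE 0.61, adjusted p = 6.92e-08), and -8.40 with library totals. Dry and Rehydrated libraries stayed low, between 5.88 and 33.6 CPM. Its counts were not whole in 3 of the 4 libraries, which marks reads that also match another assembled sequence.

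TRINITY_DN175090_c4_g1 had 1485 and 1644 CPM in Hydrated and 52.8 and 16.2 in Late, with no overlap. It fell by 5.51 on the log2 scale (SE 0.71, edgeR adjusted p = 1.97e-05). Library totals put the value at -6.14, and leaving out Late replicate 1 or Late replicate 2 put it at -6.56 or -4.89. The Early libraries were at 450 and 133 CPM, below Hydrated (adjusted p = 0.0226) and above Late (adjusted p = 0.0135). It was lower still in Dry, at 7.35 and 3.14 CPM.

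**Figure D5:**
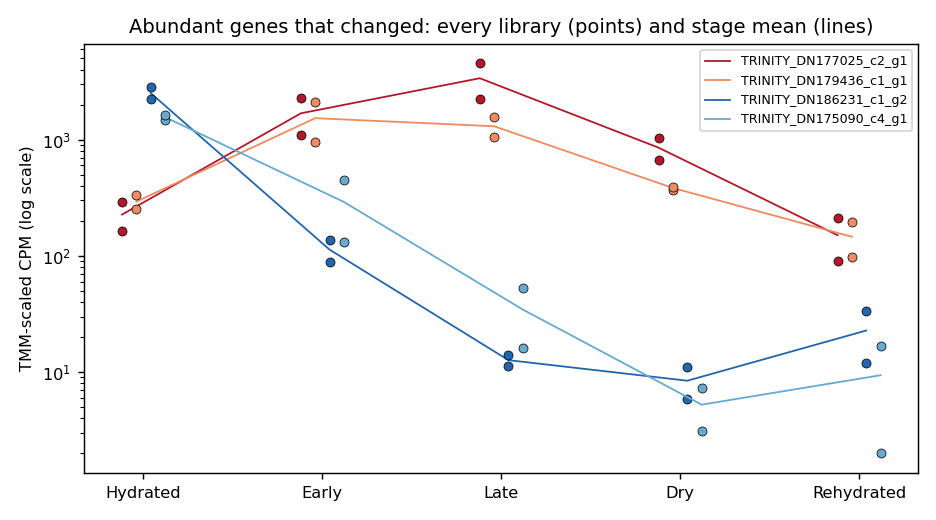
TMM-scaled CPM (vertical log axis) of 4 genes in every library (points) at the 5 stages, with lines joining stage means. TRINITY_DN177025_c2_g1 and TRINITY_DN179436_c1_g1 stand higher in Early and Late than in the other stages, and TRINITY_DN186231_c1_g2 and TRINITY_DN175090_c4_g1 step down from Hydrated to Early to Late.

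The same conditions gave a leading gene in most classes, shown by its values alone. In the high class the largest rise was from 3.22 and 0.466 CPM in Hydrated to 243 and 182 in Late. Its log2 fold change was 6.68 (SE 0.58, edgeR adjusted p = 2.62e-07). The medium class was led by a gene that went from 10.7 and 6.05 to 130 and 112 CPM (log2 fold change 3.82, SE 0.50, adjusted p = 2.29e-05). That gene continued to 5670 and 4269 CPM in Dry. The largest medium fall was from 56.6 and 39.1 CPM to 0 and 0.706, where Late held 0 and 1 counts (adjusted p = 7.0e-06). In the low class a gene with 12.9 and 73.1 CPM in Hydrated stood at 0 and 5.65 in the Late libraries. That fall was -3.80 on the log2 scale (SE 0.81, adjusted p = 0.0031), and its Hydrated libraries differed more than 5-fold. No low gene that rose met the conditions. Only 10 low genes were higher under all 4 scalings. The median tested low gene had a mean of 9.5 counts, below the 50 required.

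Among the 10 most abundant genes no single change passed the test. Adjusted p lay between 0.121 and 0.523 in edgeR, with fitted log2 fold changes of 0.79 to 1.64 under TMM. With library totals these 10 genes had values of -0.027 to 0.81, and again none passed. The first of them had 33678 and 40290 CPM in Hydrated and 71900 and 158555 in Late. The second had 8649 and 16089 CPM in Hydrated and 27333 and 31871 in Late, and the third 37737 and 30130 in Hydrated and 58751 and 101420 in Late. In all 3 both Late libraries lay above both Hydrated libraries in CPM. By share of counts the second overlapped, with 1.26% and 2.47% in Hydrated and 2.94% and 2.40% in Late. The Late libraries of the first gene differed from each other by more than its Hydrated libraries did. The genes ranked 4, 5 and 7 were short sequences, with relative lengths of 0.10, 0.045 and 0.10, so a high signal there rests on fewer reads. The gene ranked 4 had 234 and 2512 CPM in Hydrated and 3342 and 4267 in Late, with Hydrated libraries further apart, by ratio, than those of ranks 1 to 3.

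Not every call was shared by both Late libraries. In 3 of the 491 higher genes the stages overlapped and a Late library held 0 counts. The largest fitted rise of all, singled out after its values were seen, was such a gene of the high class: it had 0 counts in both Hydrated libraries, 324 in Late replicate 1 and 0 in Late replicate 2 (edgeR adjusted p = 0.0181). In Early it had 0 and 113 CPM and in Dry 351 and 0. The 8 very high and 340 medium higher genes included no case of this kind.

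Other properties of the called genes were close to those of all tested genes. The median relative length was 1.01 for higher genes and 1.09 for lower genes, where all tested genes have 1. Counts that were not whole in at least 1 of the 4 libraries, which mark reads divided between assembled genes, occurred in 13.2% of the higher, 12.8% of the lower and 10.7% of all tested genes. They were more frequent in abundant classes, at 27.3% in the high and 24.1% in the very high class against 6.13% in the low class, so levels of single abundant genes are less certain in that respect. Called genes were also grouped by assembly component, the part of an identifier that related sequences share. The tested genes fell into 7994 components, of which 1455 held at least 2 tested genes and 85 at least 2 called genes. Of these 85, 31 had only higher genes, 46 only lower genes and 8 both. Whether related sequences changed together was not tested.

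At 2.5 h, in Early, the high and very high classes stood above the medium and low classes in both libraries. The very high class stood at 0.58 and 1.11 in the 2 Early libraries and at 0.89 and 1.35 in Late, on the scale relative to all tested genes, so the stages overlapped. The high class stood at 0.58 and 0.72 in Early, level with the very high class in Early replicate 1, above the 0.46 of Late replicate 1 and near the 0.61 of Late replicate 2. Early replicate 1 had 48.7% of its counts in the very high class, near the Hydrated values, and Early replicate 2 had 64.9%, within the Late range. Fitted medians for the very high class were 0.81 in Early vs Hydrated and 0.24 in Late vs Early, against medians over all tested genes of -0.070 and 0. These comparisons share libraries, and the values are set side by side without a test.

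In the same fit 230 genes were higher (2.33%) and 269 lower (2.73%) in Early vs Hydrated, together 5.06% of those tested. Late vs Early had 29 higher (0.294%) and 113 lower genes (1.15%), together 1.44%. Scaled by library totals, Early vs Hydrated had 34 higher and 374 lower genes and Late vs Early 9 and 90. On the signal plus 0.1, limma called 2 and 4 genes in Early vs Hydrated and 2 and 14 in Late vs Early. By class, Early vs Hydrated had 20 higher and 70 lower genes in the low class, 156 and 178 in the medium, 48 and 21 in the high, and 6 and 0 in the very high class. Library totals gave 3 and 96, 13 and 246, 15 and 32, and 3 and 0, so in the high class the lower genes then outnumbered the higher ones. In Late vs Early the high class had 4 higher and 36 lower genes, 7.59% of those tested, and the very high class 0 and 1. For the medium class these numbers were 19 and 70, and for the low class 6 and 6. With a stage reduced to 1 library, the counts were smaller. Early vs Hydrated had 70 higher and 151 lower genes without Hydrated replicate 1, 43 and 75 without Hydrated replicate 2, 92 and 75 without Early replicate 1, and 57 and 59 without Early replicate 2. Late vs Early had 7 and 53 without Early replicate 1, 9 and 77 without Early replicate 2, 15 and 52 without Late replicate 1, and 7 and 17 without Late replicate 2. For the 62 high genes that were higher in Late than in Hydrated, the median log2 fold change was 1.4 in Early vs Hydrated and 0.49 in Late vs Early. For the 48 lower ones it was -0.45 and -1.63. The 407 medium genes that were lower had medians of -1.09 and -1.08. These genes were chosen on Late and Hydrated libraries, which enter the intervals as well.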

How the data were processed

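RNA from 10 libraries in 5 stages, 2 per stage, was sequenced after removal of ribosomal RNA, per the labels' protocols. The authors deposited expected counts per assembled gene, not normalized, and a TMM-normalized, length-corrected expression signal; its unit before TMM (TPM or FPKM) is not stated there. The submitters' processing notes list RSEM 1.2.28, Bowtie2 2.2, Trimmomatic 0.35, CASAVA 1.4 and DESeq2, without roles. Row identifiers have the form that Trinity writes; column names mark them as plant genes, and the selection is not described in the sources used here. Columns were matched to titles by replicate number and time code (prefix Sdes for Ades).

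Expected counts were rounded, filtered with filterByExpr (minimum count 10; 9856 genes holding 98.3% of counts), scaled with TMM and tested with edgeR 4.0.16 in R 4.3.3 by the quasi-likelihood test in one fit of 10 libraries with a term per stage and 5 residual degrees of freedom. Calls have a Benjamini-Hochberg adjusted p under 0.05. Standard errors are the fold change over the root of F. CPM are TMM-scaled. Relative length is counts divided by signal, and a count was called whole within 0.001. Class limits of 10, 100 and 1000, members and rules were chosen with earlier results of these data known. Named genes were the 2 with the highest signal in each direction among genes that met the conditions given with them; class leaders and the 10 most abundant genes were fixed likewise. The fits were tested on simulated data. Libraries of a stage differed by more than sampling noise. Without molecular identifiers, intervals and limits cover counting error alone. Alternatives used limma 3.58.1 and DESeq2 1.42.0.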

Additional observations from a re-analysis of the deposited data

How the results depend on the processing

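The order of the 4 class medians, relative to all genes, was the same under the scalings, filters, tests, class definitions and left-out libraries run. With library totals the higher genes numbered 117 (10, 75, 30 and 2 from the low to the very high class) and the lower genes 1347 (453, 798, 94 and 2), and class medians were -1.07, -0.70, -0.28 and 0.28. Without the filter the very high class had 4 higher genes, the low and medium medians were -0.68 and -0.018, and the medium and high medians relative to all genes 0.40 and 0.83. DESeq2 gave 26 higher and 54 lower low genes, 41 higher very high genes and 377 lower genes in all. limma on the signal plus 0.1 gave 110 higher genes (11, 68, 30 and 1) and 150 lower (35, 97, 18 and 0), with low and medium medians of -0.45 and -0.028 and a relative medium median of 0.14; with 1 added it gave 174 higher (18, 119, 35 and 2) and 324 lower (93, 205, 26 and 0), with a medium median of -0.027. The Hydrated and Late libraries alone gave 105 higher high and 41 higher very high genes. With the replicate number as a block (replicate block) 30 very high genes were higher, and 590 and 702 genes were higher and lower in all. Deviations of same-numbered Hydrated and Late libraries from their stage means correlated at 0.050 across genes. Over all pairs of stages this correlation ran from -0.081 to 0.15. Most tested genes had few counts, which pulls such a correlation towards 0, so it cannot decide whether the numbers pair samples. The main fit left the libraries unpaired. Classes cut on the 6 other libraries had 24 higher and 1 lower very high genes, 302 lower low and 30 lower high genes and a relative medium median of 0.15; cut on all 10, 17 higher and 1 lower very high genes; cut on CPM, 4 lower very high genes and a relative medium median of 0.11. The cause of these differences was not tested. Leaving out 1 library gave 197 to 263 higher genes (21 to 30, 142 to 186, 31 to 47 and 3 to 7 by class) and 296 to 383 lower genes (60 to 93, 212 to 268 and 24 to 43), low medians of -0.42 to -0.21, medium medians of 0.024 to 0.10 and relative medium medians of 0.072 to 0.16. For Early vs Hydrated it gave 43 to 221 higher and 59 to 280 lower genes, and for Late vs Early 7 to 30 and 17 to 115. Other counts that moved by more than 1.5 times were, for Early vs Hydrated, 34 higher with library totals, 135 lower with DESeq2, and 2 and 4 (plus 0.1) or 9 and 18 (plus 1) with limma; for Late vs Early, 9 higher with library totals, 47 higher with DESeq2, 181 lower without the filter, and 2 and 14 or 4 and 26 with limma. Class shares of counts moved by less than their spread under the class definitions, left-out libraries and left-out top gene run. Depth limits the low class, in which 10500 genes were not tested.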
